A study of Mus musculus with 11 samples.

Results

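Aminoacyl-tRNA synthetases are the enzymes that join each amino acid to its transfer RNA, and 36 of their genes were followed here out of the 21957 genes in the table. The members were chosen by name: 20 enzymes of the cytosol and 16 of the mitochondrion, matched to their Ensembl identifiers. Lars2, the mitochondrial leucyl-tRNA synthetase, is set against the others because of its large RNA rise and its lack of stimulated footprints, so these values of Lars2 are described and not tested. All 36 genes were in the table and all 36 passed the filter on low counts in the RNA, but only 4 passed it in the ribosome footprints.

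The cells were primed OT1 cells, CD8 T lymphocytes whose transgenic antigen receptor recognises a peptide of ovalbumin. The unstimulated group was left resting, and the stimulated group was exposed for 2 h to beads with antibodies to CD3 and CD28, the receptor complex and a costimulatory receptor. Both groups were given cycloheximide, which halts elongating ribosomes, for 10 min before they were collected. RNA was counted in 3 libraries of each group and ribosome footprints, the stretches of mRNA covered by ribosomes, in 3 unstimulated and 2 stimulated libraries (replicates 2 and 3). The labels give no strain, sex or age. Nor do they tell if the replicates came from different cultures or mice, and the p-values therefore measure only the spread between these samples, which may be technical. In such bulk samples, fewer cells of a type and less RNA per cell cannot be told apart.

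A synthetase recognises its amino acid and the matching tRNAs, activates the amino acid with ATP and transfers it to the end of the tRNA, which an elongation factor then carries to the ribosome. The enzymes fall into class I and class II, which have unrelated catalytic folds. In the cytosol several of them sit in a multisynthetase complex held together by scaffold proteins, while mitochondria import a separate set encoded in the nucleus for their own protein synthesis. Gars and Kars encode both the cytosolic and the mitochondrial form of their enzyme and were counted as cytosolic. Eprs, which fuses a class I and a class II enzyme, was counted as class I.

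The RNA libraries held 21658263 to 39346699 counts and the footprint libraries 11136 to 23641, so footprint values of single genes rest on few reads. CD8 T cell genes were well covered, with group means from 117 (Cd3e) to 629 (Cd8a) CPM in the RNA for the 4 genes Cd3d, Cd3e, Cd3g and Cd8a, where CPM are TMM-scaled counts divided by library size. Of 21 markers of CD4 T cells, B cells, myeloid cells, NK cells and erythroid cells, 18 had both group means under 3 CPM. The others were Cd40lg (8.34 and 17.6 CPM, called higher with adjusted p = 0.00474 in edgeR), Itgax (5.74 and 5.52 CPM) and Alas2 (4.31 and 1.49 CPM, called lower with adjusted p = 0.0256 in edgeR). Summed, the 21 came to 30.0 to 43.8 CPM in the unstimulated and 45.8 to 52.4 CPM in the stimulated libraries, and their part in the results was not tested. Counts of 1538 olfactory, vomeronasal and defensin genes, which T cells are not known to use, took 0.0300, 0.188 and 0.0406% of the unstimulated RNA libraries and 0.275, 0.203 and 0.0685% of the stimulated ones. This background is high in unstimulated replicate 2 and stimulated replicates 1 and 2. Lars2 and the predicted genes Gm10800, Gm10801 and Gm20594 together took 4.09, 14.9 and 5.14% of the unstimulated and 25, 22.5 and 12.8% of the stimulated RNA counts, which lowers the part left to every other gene.

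Promoter sequences of RefSeq (GRCm38.p6, 250 bases before to 50 after the start site) were matched for 27 of the 36 members. Both strands were searched for CACGTG, the E-box bound by Myc, and for TGATGNAA, the core of the element bound by ATF4, both factors known to act on synthetase genes. CACGTG was in 5 of the 27 (Aars, Ears2, Farsb, Iars and Tars), against 7.15% of 32851 promoters of all genes. TGATGNAA was in 5 as well (Aars, Gars, Iars, Tars and Yars), against 3.97% of all promoters. Aars, Iars and Tars held both, as did 0.201% of all promoters. Their windows are shown first, because they carry the motifs, followed by those of Lars2 and Mars2, the members whose RNA rose most, which held neither. Capitals mark the matches. No match says only that these letters are not in the window. The windows lie at chr8:111033592-111033891 (Aars, plus strand), chr13:49681880-49682179 (Iars, plus), chr15:11399609-11399908 (Tars, minus), chr9:123366677-123366976 (Lars2, plus) and chr1:55236927-55237226 (Mars2, plus), each printed 5′ to 3′ on the strand of the gene.
Aars: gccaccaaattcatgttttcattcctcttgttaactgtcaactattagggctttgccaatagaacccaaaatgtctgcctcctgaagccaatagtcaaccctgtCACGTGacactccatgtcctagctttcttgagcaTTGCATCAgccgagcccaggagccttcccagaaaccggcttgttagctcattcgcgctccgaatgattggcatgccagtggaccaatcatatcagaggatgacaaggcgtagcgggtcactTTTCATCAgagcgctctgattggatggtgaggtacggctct
Iars: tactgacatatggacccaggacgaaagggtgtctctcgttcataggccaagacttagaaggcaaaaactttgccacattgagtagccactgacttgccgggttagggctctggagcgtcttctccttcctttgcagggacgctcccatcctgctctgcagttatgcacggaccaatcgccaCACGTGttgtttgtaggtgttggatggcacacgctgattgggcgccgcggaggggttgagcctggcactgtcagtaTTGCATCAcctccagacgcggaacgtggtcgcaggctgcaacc
Tars: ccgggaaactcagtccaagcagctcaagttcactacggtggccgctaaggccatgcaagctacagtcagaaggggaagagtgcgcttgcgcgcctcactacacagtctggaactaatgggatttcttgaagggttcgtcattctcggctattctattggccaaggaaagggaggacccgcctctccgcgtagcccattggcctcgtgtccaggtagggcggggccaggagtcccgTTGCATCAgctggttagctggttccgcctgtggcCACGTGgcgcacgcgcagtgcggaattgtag
Lars2: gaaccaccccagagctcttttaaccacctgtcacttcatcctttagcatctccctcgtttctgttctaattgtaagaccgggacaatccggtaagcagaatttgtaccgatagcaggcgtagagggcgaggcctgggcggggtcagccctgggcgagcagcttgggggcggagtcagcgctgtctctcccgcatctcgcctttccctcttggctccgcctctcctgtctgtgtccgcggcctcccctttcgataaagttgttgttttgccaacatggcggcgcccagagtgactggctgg
Mars2: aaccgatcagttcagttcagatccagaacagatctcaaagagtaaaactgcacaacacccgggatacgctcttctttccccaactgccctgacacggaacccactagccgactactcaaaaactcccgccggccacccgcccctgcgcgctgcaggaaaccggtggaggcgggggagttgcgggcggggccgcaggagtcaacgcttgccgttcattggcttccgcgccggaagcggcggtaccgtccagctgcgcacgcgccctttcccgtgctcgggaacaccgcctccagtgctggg

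Lars2 (chromosome 9, 123366927 to 123462675) stood apart from every other member in the RNA. Its counts were 5384, 1200 and 3323 in the unstimulated libraries and 840160, 1333730 and 1201542 in the stimulated ones. As a share of all RNA counts this was 0.0137, 0.00410 and 0.00849% and then 3.88, 4.90 and 4.27%. Every stimulated library lay far above every unstimulated one, and so by construction also among the 3 libraries with high background and the 3 with low background. On the scaled values the change was 9.14 on the log2 scale, the largest of the 18886 genes tested, and the next largest was 7.84. The unstimulated library with the most background, replicate 2, had the lowest Lars2 count.

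Against its own family the shift was as wide. For each count of the other 15 mitochondrial synthetases summed there were 0.230, 0.0791 and 0.145 counts of Lars2 in the unstimulated libraries and 86.6, 105 and 77.2 in the stimulated ones. In counts, which also depend on gene length, Lars2 was thus below the sum of the other mitochondrial enzymes in every library before stimulation and above the sum of all 35 other members afterwards. Of the predicted genes that also hold many counts, Gm10800 had 19011, 113179 and 28628 CPM unstimulated and 159362, 143600 and 70338 CPM stimulated. These groups overlap, as do those of Gm10801. Gm20594 had 16768, 14537 and 15994 CPM unstimulated and 17449, 17377 and 23790 CPM stimulated, and its groups did not overlap. Their part in the Lars2 counts was not tested. RefSeq places a long noncoding gene, Gm46137, inside the span of Lars2, and the strand used in counting is not given in the sources used here.

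**Figure D1:**
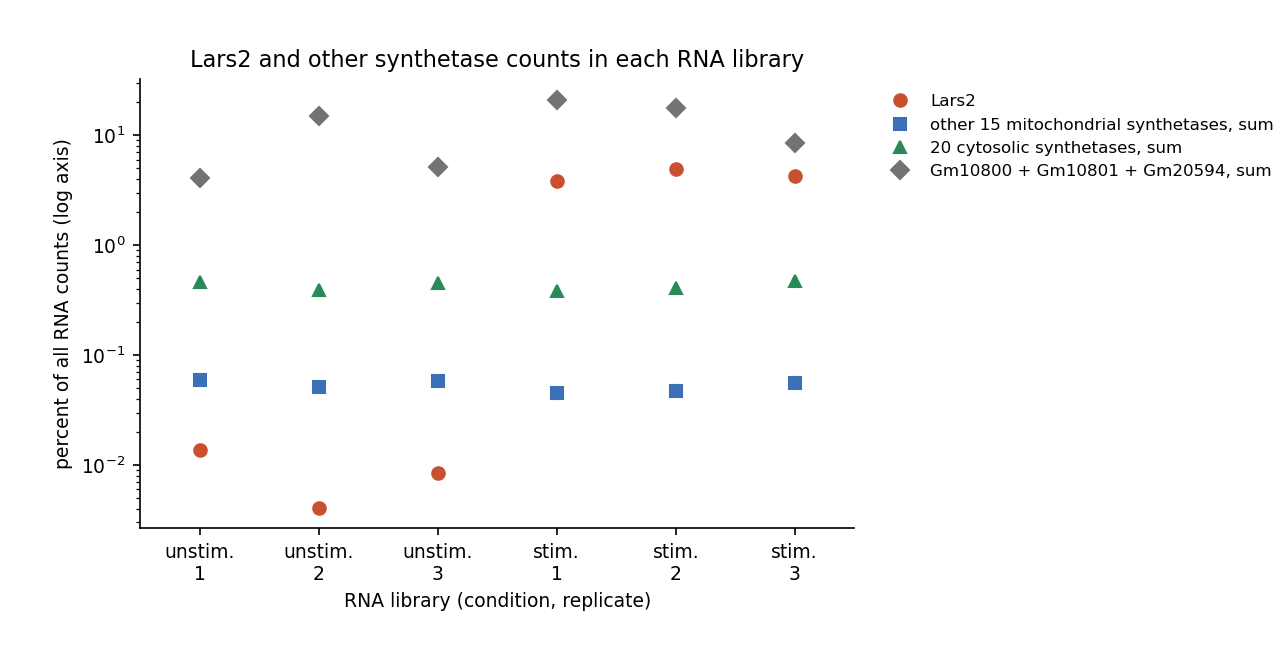
Percent of all RNA counts (log axis) in each of the 6 RNA libraries for Lars2, the sums of the other 15 mitochondrial and the 20 cytosolic synthetases, and the sum of 3 predicted genes. Lars2 goes from at most 0.0137% in unstimulated to at least 3.88% in stimulated libraries, while the sums of the other synthetases stay within a narrow band.

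Ribosome footprints on Lars2 did not follow its RNA. The 5 footprint libraries held 0, 1 and 0 footprints unstimulated and 0 and 0 stimulated. A count of 0 among the 44489 stimulated footprints allows up to 3, or 67.4 CPM on library totals, against a mean of 43514 CPM on library totals in the stimulated RNA. The RNA share was at least 645-fold higher than the footprint share. Had footprints followed the RNA share, 1936 would have been counted. Before stimulation the single footprint corresponded to 24.4 CPM (95% exact interval 0.618 to 136, counting error only), and the RNA mean of 87.6 CPM lies inside that interval.

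Among the remaining 35 members, tested with edgeR's quasi-likelihood test and Benjamini-Hochberg adjustment over all genes, 2 mitochondrial enzymes rose in the RNA and none fell. Over all 18886 genes 3.58% were called higher and 4.68% lower. Mars2 (chromosome 1, 55237177 to 55240058), the mitochondrial methionyl-tRNA synthetase, had 38.1, 34.5 and 39.6 CPM unstimulated and 55.9, 65.9 and 81.8 CPM stimulated. Its log2 change was 0.86 ± 0.18 (SE; adjusted p = 0.0121), with no overlap between the groups. Yars2 (chromosome 16, 16302965 to 16309640), the mitochondrial tyrosyl-tRNA synthetase, had 30.6, 26.9 and 32.2 CPM unstimulated and 39.0, 44.9 and 65.7 CPM stimulated. Its log2 change was 0.74 ± 0.20 (adjusted p = 0.0429), again without overlap. Both calls depend on single libraries: adjusted p for Mars2 was 0.124 without unstimulated replicate 3 and 0.136 and 0.235 without stimulated replicates 1 and 2, and for Yars2 it was 0.116, 0.215, 0.220 and 0.292 without unstimulated replicates 1 and 3 and stimulated replicates 1 and 2. With DESeq2 the adjusted p was 0.122 and 0.269.

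The other 33 members did not pass. Their log2 changes ran from -0.65 to 0.58. At the lower end was Cars2, the mitochondrial cysteinyl-tRNA synthetase, with 27.2, 23.3 and 28.1 CPM unstimulated and 13.7, 14.5 and 21.9 CPM stimulated (adjusted p = 0.0532). At the upper end was Rars, the cytosolic arginyl-tRNA synthetase, with 109, 103 and 107 CPM unstimulated and 130, 148 and 199 CPM stimulated (adjusted p = 0.102). Both had groups that did not overlap. Without Lars2, 7 of 35 members had all stimulated libraries above all unstimulated ones and 2 had them below, while 15.4 and 13.6% of all tested genes did. The median log2 change was 0.21 for the 20 cytosolic members, 15 of them positive, and -0.16 for the 15 mitochondrial members, 5 of them positive, beside 0.38 for all tested genes.

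These scaled values carry the spread of the libraries themselves. Aars, the alanyl-tRNA synthetase, had 400, 364 and 399 CPM unstimulated and 311, 363 and 495 CPM stimulated, and all 35 members had their highest stimulated value in replicate 3, the stimulated library with the least background. The part of the background in this was not tested. Leaving out 1 library moved the count of members called lower from 0 to 18 (without unstimulated replicate 2) or 13 (without stimulated replicate 3), where 32.1 and 21.9% of all genes tested were called lower. Restricting the test to 8725 genes of at least 10 CPM called 18 of the 35 higher and 6 lower, where 36.8 and 36.1% of those genes were called.

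Each member's share of the counts of the 35 members within its own library uses no library totals or TMM factors. On this measure most replicates lay close together, though its changes depend on the total chosen. The pooled SD of the log2 share had a median of 0.04 over the members and was highest for Nars2 (0.15). With 3 libraries against 3, an exact permutation test cannot go below p = 0.10, so the shares are described by whether the groups overlap. In 14 members all stimulated shares were above all unstimulated ones, in 17 below, and in 4 (Wars, Nars2, Wars2 and Aars2) they overlapped. Since the shares sum to a whole, higher and lower shares balance by construction. Every tested gene divided by the same total gave 12.4% above and 29.1% below, and genes of at least 10 CPM gave 20.5% above and 57.2% below. The direction was the same within the high-background and within the low-background libraries for 34 of 35 members, all but Nars2. For members whose groups do not overlap this follows by construction, so only the 4 that overlap could have differed. The part of the background was not tested by it. With all counts outside Lars2 and the 3 predicted genes as the total instead, 16 members lay above, 11 below and 8 overlapped.

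The cytosolic enzymes with the lowest ratio of stimulated to unstimulated share were Vars and Cars, the valyl- and cysteinyl-tRNA synthetases. Vars (chromosome 17, 35000907 to 35016329) took 7.36, 7.32 and 7.93% of the counts of the 35 members unstimulated and 4.75, 5.26 and 5.17% stimulated, a ratio of 0.671. Cars took 4.05, 4.05 and 3.95% unstimulated and 2.75, 2.71 and 2.69% stimulated, a ratio of 0.676. In both genes the gap between the groups was several times the spread within them. Qars, the glutaminyl-tRNA synthetase, went from 2.64, 2.76 and 2.63% to 2.07, 2.07 and 2.17% (ratio 0.785), also with no overlap. Smaller differences in the same direction, without overlap, were seen for Mars (0.883), Yars (0.888), Aars (0.924) and Gars (0.961). The changes of Aars and Gars turned positive with all counts outside Lars2 and the 3 predicted genes as the total. Divided by the total of the 35 members, 57.2% of genes of at least 10 CPM were lower without overlap and 20.5% higher.

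The cytosolic enzyme with the highest ratio was Rars, from 2.26, 2.41 and 2.24% to 3.19, 3.18 and 3.14% (ratio 1.38). Farsa and Farsb, the alpha and beta chains of the same phenylalanyl-tRNA synthetase, had nearly equal ratios of 1.26 and 1.24. Farsa took 1.81, 1.79 and 1.79% unstimulated and 2.17, 2.28 and 2.34% stimulated. Tars, whose promoter holds both motifs shown above, had a ratio of 1.20, and Iars and Aars, the other carriers, had 1.08 and 0.924. On the scaled values Tars, Iars and Aars changed by 0.37, 0.23 and 0.007 on the log2 scale, and none of them passed. The part of the motifs in these changes was not tested. Eprs, with the most RNA counts of the 35, took 10.1, 10.0 and 9.79% unstimulated and 12.2, 11.8 and 11.8% stimulated (ratio 1.19).

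By class, 8 of the 10 cytosolic class II genes had a higher share in every stimulated library and 2 a lower one, while of the 10 class I genes 4 were higher, 5 lower and 1 overlapped. The summed share of class II was 42.7, 42.7 and 42.9% unstimulated and 46.0, 45.4 and 45.3% stimulated. Of the 8 enzymes of the multisynthetase complex, 6 were higher (Dars, Eprs, Iars, Kars, Lars and Rars) and 2 lower (Mars and Qars). The complex as a whole went from 35.3, 35.2 and 34.7% to 38, 38 and 37.6%. These sums carry no test of their own. Beside the counts by class and complex, 20.5% of genes of at least 10 CPM were higher and 57.2% lower on the same total.

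The mitochondrial enzymes together had a lower share of the counts of the 35 members after stimulation. The 15 held 11.5, 11.7 and 11.5% unstimulated and 10.5, 10.4 and 10.5% stimulated. Against all counts outside Lars2 and the 3 predicted genes they held 0.0621, 0.0609 and 0.0618% and then 0.0597, 0.0603 and 0.0636%, which overlap. Within the 35 members, 10 of the 15 were lower in every stimulated library, 2 (Mars2 and Yars2) were higher and 3 overlapped. Divided by the same total, 57.2% of genes of at least 10 CPM were lower and 20.5% higher. Cars2 went from 0.564, 0.544 and 0.590% to 0.336, 0.312 and 0.346%, a ratio of 0.586 and the lowest of all 35. Pars2, the prolyl enzyme, and Iars2, the isoleucyl enzyme, had ratios of 0.674 and 0.754. Both cysteinyl enzymes, cytosolic Cars and mitochondrial Cars2, were thus among the 4 members with the lowest ratios. Mars2 and Yars2 had the highest ratios of the 35, 1.68 and 1.53. Their cytosolic counterparts, Mars and Yars, had lower shares of this total in every stimulated library. On the scaled values Mars and Yars changed by only -0.06 and -0.04 on the log2 scale, with groups that overlapped.

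**Figure D2:**
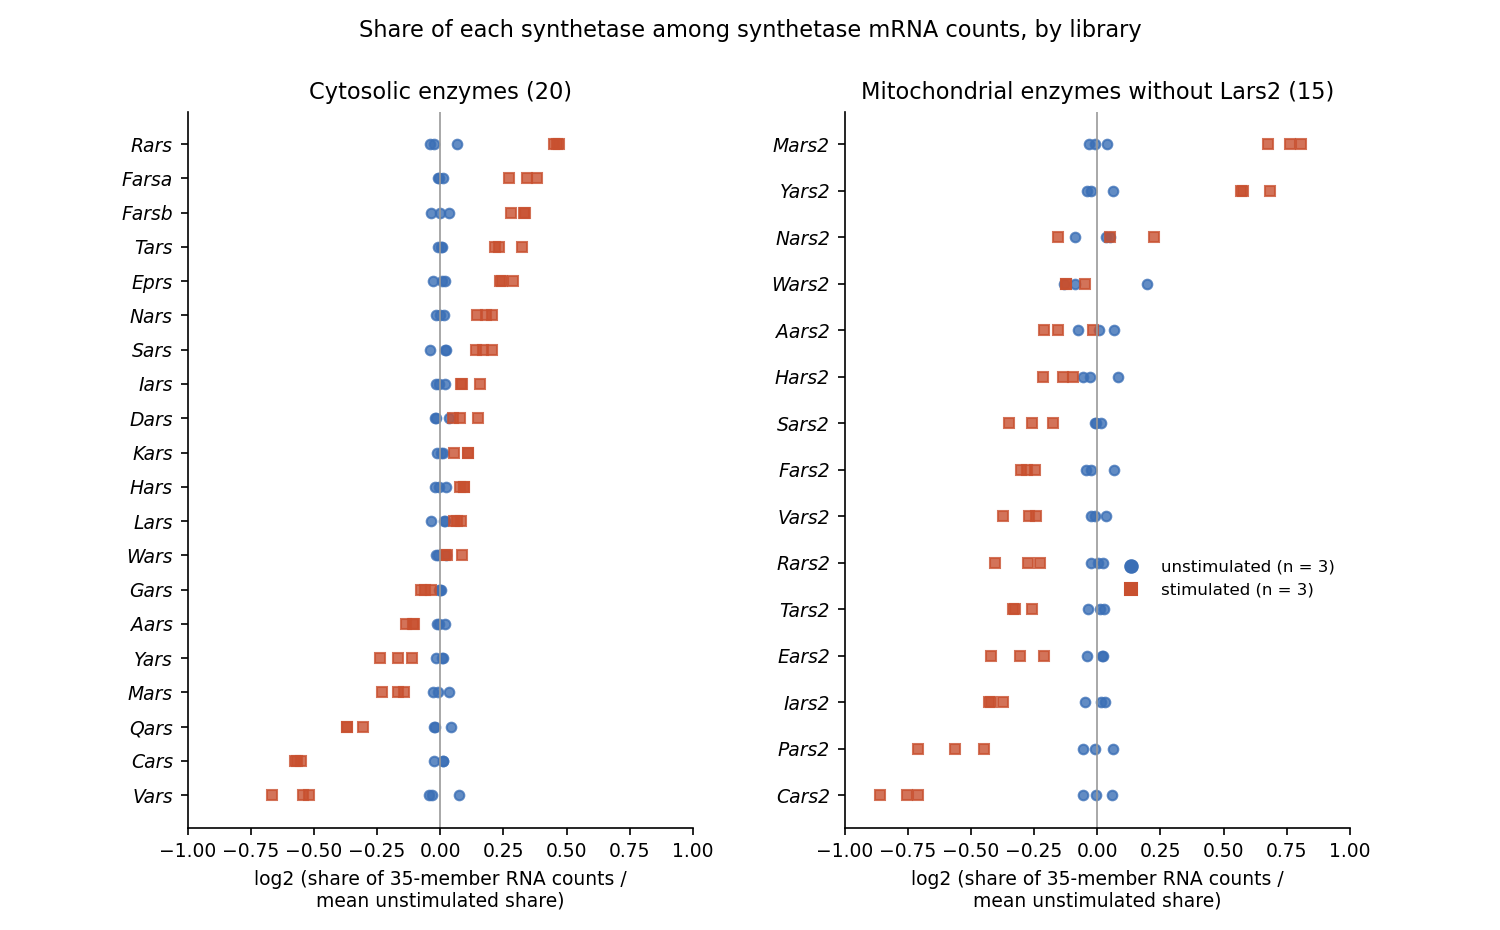
The log2 ratio of each library's share to the mean unstimulated share, for the 20 cytosolic and the 15 mitochondrial members without Lars2, with circles for unstimulated and squares for stimulated RNA libraries. The genes run from Mars2 and Yars2 on the right (ratios 1.68 and 1.53) to Cars2 on the left (0.586), and the spread within a group is widest for Nars2, whose stimulated shares are 0.485, 0.429 and 0.372%.

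In the footprints the 35 members were seen 256 times in the unstimulated libraries (81, 91 and 84) and 399 times in the stimulated ones (173 and 226). This was 0.625% of all unstimulated footprints (95% exact interval 0.551 to 0.706) and 0.897% of all stimulated ones (0.811 to 0.989), intervals that cover counting error only. By library the share was 0.727, 0.625 and 0.551% and then 0.830 and 0.956%, without overlap. Of the single genes tested in the footprints, 20.7% had no overlap in this direction after scaling and 18% in the other. In the RNA, outside Lars2 and the 3 predicted genes, the same members made up 0.540, 0.520 and 0.538% unstimulated and 0.568, 0.582 and 0.603% stimulated. The cytosolic enzymes had 230 and then 371 of these footprints, and the 15 mitochondrial enzymes 26 and then 28. The mitochondrial part of the members' footprints was 10.2% (6.74 to 14.5) unstimulated and 7.02% (4.71 to 9.98) stimulated, intervals that overlap. Their part of the RNA was 11.6% unstimulated, inside the interval, and 10.5% stimulated, above it. Of the 26 unstimulated footprints 11 were on Yars2. Without Yars2 the part was 5.86% (3.32 to 9.48) against 10.9% of the RNA unstimulated. Stimulated it was 6.27% (4.10 to 9.11) against 9.49%, so both RNA values lay above the intervals.

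Only Aars, Nars, Sars and Vars had enough footprints for the test across genes, and none of the 4 passed. Of the 256 genes tested, 5.86% were called higher and 3.52% lower. Sars, the seryl-tRNA synthetase, had 6, 6 and 4 footprints unstimulated and 19 and 25 stimulated. Its log2 change was 1.06 ± 0.49 (unadjusted p = 0.0315, adjusted p = 0.179 with edgeR), and its libraries did not overlap after scaling, as those of 20.7% of tested genes in this direction (18% in the other) did not. The changes of the other 3 were 0.70 ± 0.47 (Vars), -0.79 ± 0.64 (Nars) and 0.02 ± 0.42 (Aars), all with overlapping libraries. With DESeq2, which tested 32 of the 35, and with limma voom no member was called either, and 1 and 2 members had an unadjusted p under 0.05.

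Translational efficiency, the change in footprints beyond the change in RNA, was tested for the same 4 genes as the interaction of assay and stimulation. No gene of 255 was called by edgeR (0%), and 2 of the 4 members had an unadjusted p under 0.05. Vars had 12, 4 and 7 footprints unstimulated and 14 and 34 stimulated while its RNA share was lower, giving an efficiency change of 1.30 ± 0.55 (unadjusted p = 0.0186, adjusted p = 0.252). Nars, the asparaginyl-tRNA synthetase, had 10, 11 and 5 and then 12 and 3, giving -1.26 ± 0.64 (unadjusted p = 0.0499, adjusted p = 0.454). Sars had 0.99 ± 0.60 and Aars 0.03 ± 0.54. The value for Vars depended on single libraries. It was called higher when unstimulated RNA replicate 2 (adjusted p = 0.0122) or stimulated RNA replicate 3 (adjusted p = 0.0338) was left out, where 9.41 and 6.27% of the 255 genes were called higher. Its change was 1.97 without unstimulated footprint replicate 1 (adjusted p = 0.101), 0.86 without unstimulated footprint replicate 2 (adjusted p = 0.699) and 0.63 without stimulated footprint replicate 3 (adjusted p = 0.853). For Nars the change was -2.60 without stimulated footprint replicate 2 and -0.50 without replicate 3. In fits with 1 stimulated footprint library, that library is assumed to vary like the other groups. Over all genes 28 had an unadjusted p under 0.05 with edgeR, DESeq2 called 8 genes higher and 4 lower, and limma voom called 1 gene higher. The 28 included Vars and Nars, and none of the genes called by DESeq2 or limma voom was among the 35 members.

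For most members the footprint share could not be told from the RNA share within counting error. The RNA share lay inside the 95% exact interval of the footprint share for 29 of 35 members unstimulated and 27 of 35 stimulated. Where footprints are few this shows little. With 0 unstimulated footprints the upper limit was 1.43%, above the RNA share of Fars2 (0.606%). Pooled over libraries, Eprs took 5.08% of the members' footprints (2.73 to 8.53) against 9.99% of their RNA unstimulated, and 6.02% (3.89 to 8.82) against 11.9% stimulated. The stimulated value rests on replicate 2, with 0.578% (0.0146 to 3.18), since replicate 3 had 10.2% (6.56 to 14.9), an interval that holds the RNA share. Iars, also below its RNA share, took 1.95% (0.64 to 4.5) against 4.95% unstimulated, and 1.5% (0.55 to 3.24) against 5.33% stimulated, below it in both stimulated libraries. By single unstimulated library, the interval missed the RNA share only in replicate 1 for Eprs (2 footprints) and replicate 3 for Iars (0 footprints).

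Nars was above its RNA share unstimulated when pooled, at 10.2% (6.74 to 14.5) against 6.25%, though each single library's interval held the RNA share. Stimulated it was below, at 3.76% (2.12 to 6.12) against 7.06%, which rests on replicate 3 with 1.33% (0.275 to 3.83). Replicate 2 had 6.94% (3.64 to 11.8). Sars held its RNA share before stimulation and lay above it afterwards, at 11% (8.13 to 14.5) against 5.58%, in both stimulated libraries. Vars also lay above it afterwards, at 12% (9.0 to 15.6) against 5.06%, with 15.04% (10.6 to 20.4) in replicate 3 and 8.09% (4.49 to 13.2) in replicate 2, whose interval holds the RNA share. Mars and Farsa were also above and Lars below after stimulation, each in 1 of the 2 libraries, and Hars was above before it, in 2 of 3 libraries.

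The tyrosyl pair differed in the unstimulated cells. Yars, the cytosolic enzyme, had 0, 0 and 0 footprints unstimulated and 3 and 5 stimulated. Pooled, a count of 0 of 256 allows a share of up to 1.17% (1.43% as the exact upper limit), and the RNA share of Yars was 3.34%. Each single library's interval held that RNA share, with upper limits of 4.45, 3.97 and 4.30%. Yars2 had 3, 4 and 4 footprints unstimulated and 2 and 1 stimulated. Its footprint share was 4.30% (2.16 to 7.56) against an RNA share of 0.646% unstimulated, and 0.752% (0.155 to 2.18) against 0.987% stimulated. The footprint share of Yars2 was thus lower where its RNA share was higher, on 11 and 3 footprints, with intervals that overlap narrowly. Mars2, which rose in the RNA, had 0, 0 and 0 footprints unstimulated and 3 and 6 stimulated. These genes were too sparse for the test across genes.

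The 2 stimulated footprint libraries were not alike for all members. Eprs had 1 footprint in replicate 2 and 23 in replicate 3, and Qars had 9 and 0, each with intervals that did not overlap. No other member of the 35 was apart in that pair, and none was in any pair of unstimulated libraries. Of the 15 mitochondrial members, 8 had any footprint unstimulated and 10 stimulated. Ears2, Fars2 and Pars2 had none in any of the 5 libraries.

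**Figure D3:**
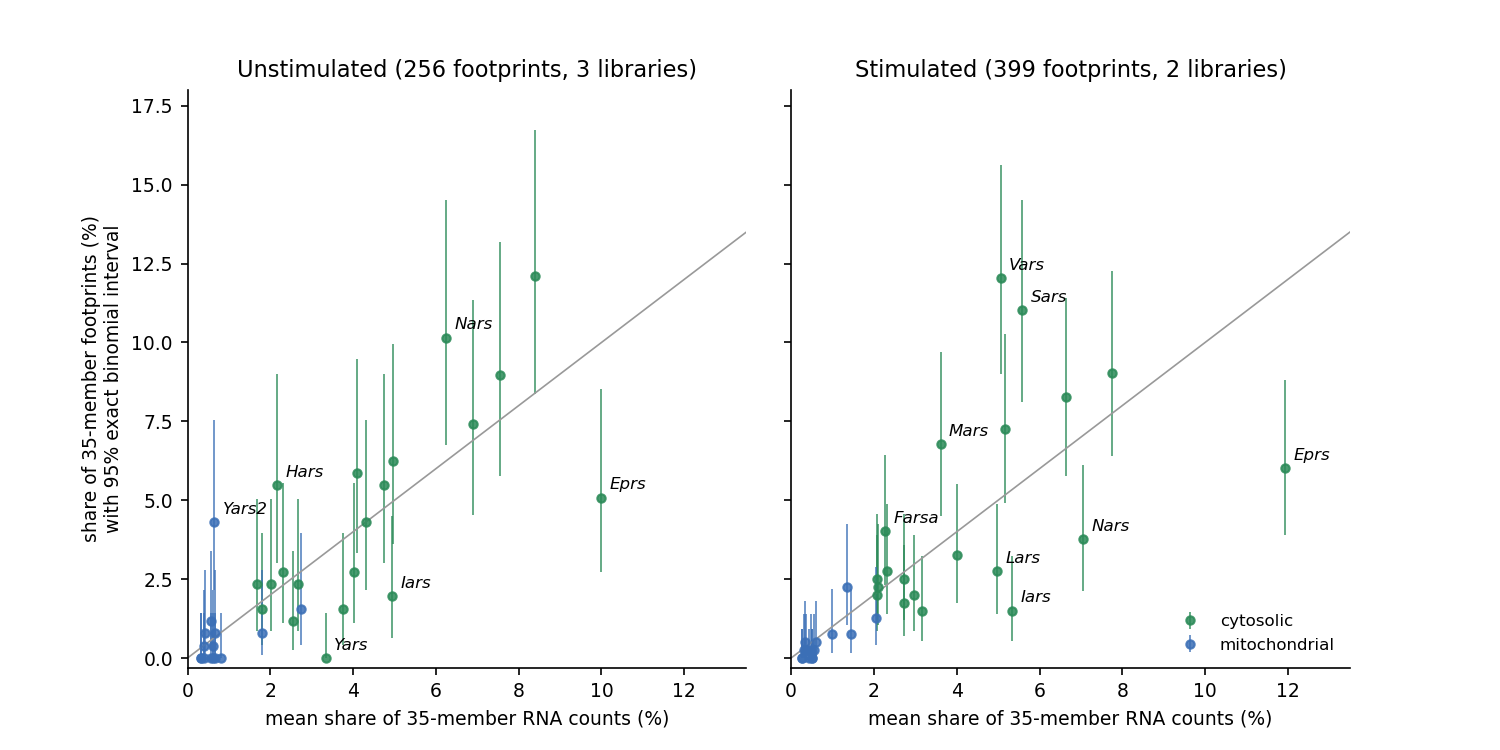
Each member's share of the 35 members' footprints, with its 95% exact binomial interval, against its mean share of their RNA counts, for unstimulated (left, 256 footprints) and stimulated cells (right, 399 footprints). The line marks equal shares and the names mark members whose interval misses it, such as Eprs below the line in both conditions and Vars above it after stimulation.

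The synthetases work with further genes, taken from lists of 103 genes, of which 102 were in the table and were tested in the RNA. Of these, 18 rose and 1 fell, beside 3.58 and 4.68% of all tested genes, and their median log2 change was 0.27 beside 0.38 for all genes. When the test was restricted to genes of at least 10 CPM, 36.8% of those genes were called higher and 36.1% lower. The counts here and by list below are therefore not read as an excess. The scaffold genes of the multisynthetase complex rose in 2 of 3 cases. Eef1e1, also called Aimp3, had 43.0, 39.3 and 42.3 CPM unstimulated and 73.3, 88.4 and 117 CPM stimulated (1.16 ± 0.19, adjusted p = 0.00427), and Aimp2 had a change of 0.75 ± 0.16 (adjusted p = 0.0167). All stimulated libraries were above all unstimulated ones for both.

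Of 21 genes of RNA polymerase III, which transcribes the tRNA genes, 4 rose and none fell, where 3.58% of all tested genes rose and 4.68% fell. Polr3d, a subunit of the polymerase, had 33.7, 33.0 and 32.7 CPM unstimulated and 66.6, 76.5 and 94.0 CPM stimulated (1.25 ± 0.17, adjusted p = 0.00135). Polr3g, a subunit found in only one form of the polymerase, changed by 1.05 ± 0.15 (adjusted p = 0.00212), and Polr3e by 0.73 ± 0.20. The median of the 21 was 0.15, below that of all genes. Of 21 genes of tRNA processing and export 3 rose: Rpp40, a subunit of the nuclease that trims tRNA 5′ ends, Elac2, the nuclease of their 3′ ends, and Xpot, the export receptor. Their changes were 0.98 ± 0.16, 0.90 ± 0.20 and 0.86 ± 0.20.

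Of 37 genes of tRNA modification 9 rose and none fell, with a median of 0.46. The shares of all tested genes called were again 3.58% higher and 4.68% lower. They were 36.8 and 36.1% when the test was restricted to genes of at least 10 CPM. There 73 of the 102 genes were called, with both directions counted together. Pus7, a pseudouridine synthase, had 51.3, 47.5 and 51.2 CPM unstimulated and 104, 114 and 156 CPM stimulated (1.32 ± 0.19, adjusted p = 0.00209). Trmt61a, the catalytic subunit of a tRNA adenosine methyltransferase, changed by 1.28 ± 0.20, Yrdc, which helps to make a modified adenosine beside the anticodon, by 1.03 ± 0.21 and Qtrt1, which inserts queuine, by 0.93 ± 0.18. In each of these genes the groups did not overlap.

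None of the genes of the 4 other lists passed: mitochondrial amidotransferase and formylation (4 genes), selenocysteine on tRNA (4), proofreading and peptidyl-tRNA release (8) and delivery to the ribosome (2). The gene of each with the highest CPM had log2 changes of -0.06 ± 0.16 (Qrsl1), 0.10 ± 0.19 (Secisbp2), -0.44 ± 0.16 (Ankrd16) and 0.08 ± 0.22 (Eef1a1, the factor that brings charged tRNA to the ribosome, at 7339 ± 434 and 7747 ± 1746 CPM, SD, n = 3 each). The number of the 102 genes called went from 19 to 60 without unstimulated replicate 2 and to 5 without unstimulated replicate 3 or stimulated replicate 2. Eef1e1, Polr3d, Polr3g, Pus7 and Trmt61a stayed called with every single library left out. Only 1 of the 102 genes had enough footprints for the footprint test, and it did not pass.

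**Figure D4:**
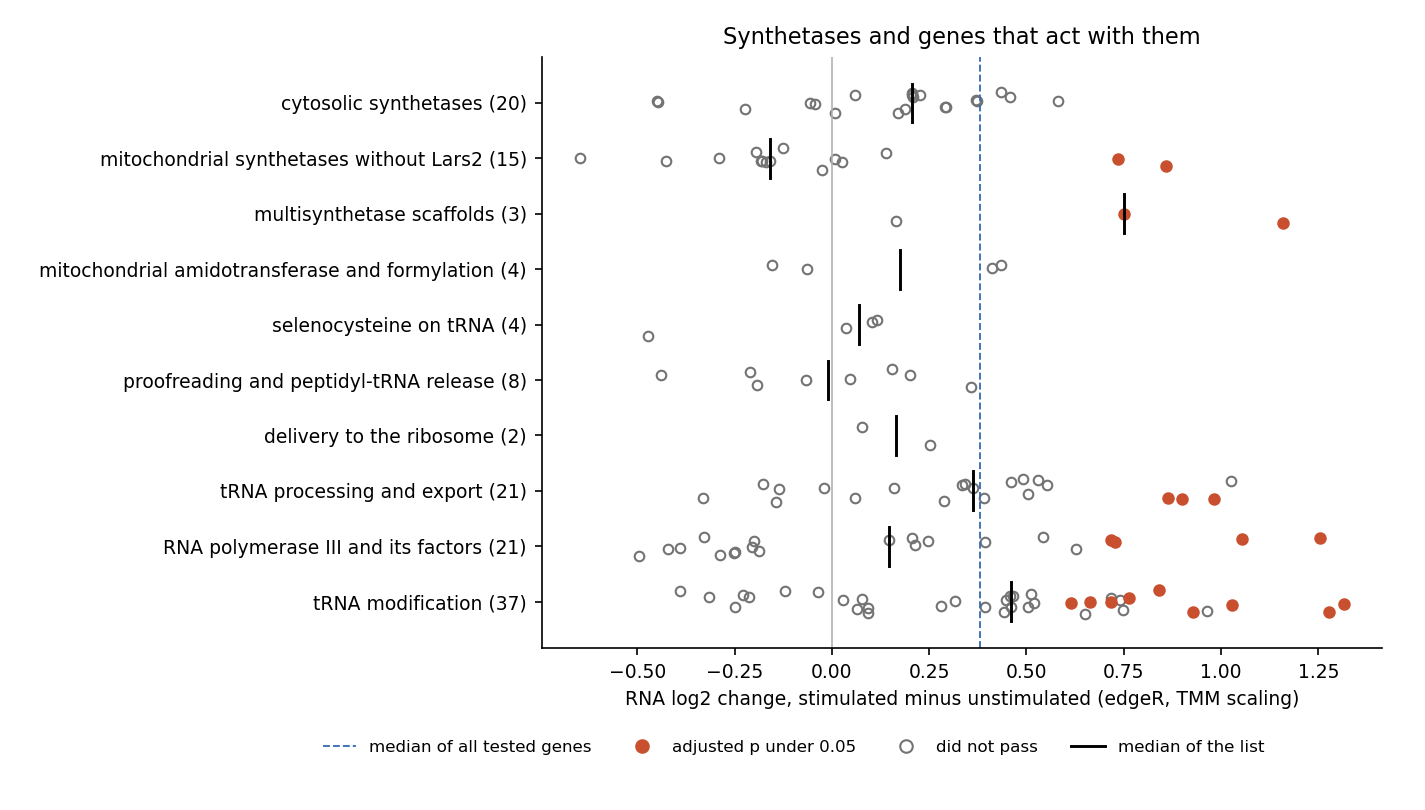
RNA log2 change of every member without Lars2 and of genes that act with them, by list, with filled points for adjusted p under 0.05, black bars for list medians and a dashed line for the median of all tested genes (0.38). Filled points lie on the right for Mars2, Yars2 and in the scaffold, processing, polymerase III and modification lists. A list of 2 other synthetases, which holds the 1 gene called lower, is not drawn.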

How the data were processed

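The authors deposited unnormalized whole-number counts of reads on each gene's coding sequence for 6 RNA and 5 footprint libraries. The aligner was STAR 2.5 and the genome build mm10 (GRCm38), per the submitters' processing notes. The counting tool, annotation release, strand handling and read filters are not given in the sources used here. Symbols and positions come from RefSeq (GRCm38.p6), which named 21838 of the 21957 identifiers. Each assay was fitted with edgeR 4.0.16 (R 4.3.3), quasi-likelihood, TMM factors on genes passing its filter (minimum count 10, minimum total 15), prior count 2, adjusted p under 0.05 over all genes tested and two-sided. Efficiency was the interaction of assay and stimulation over 11 libraries. The fits were tested on simulated data.

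Shares divide a member's counts by those of the 35 members without Lars2 in the same library. Intervals are exact binomial (95%), a count of 0 allows up to 3 counts, and both cover counting error only.

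Alternatives were DESeq2 1.42.0, limma 3.58.1 (voom), other scalings, filters and thresholds, replicate number as a block and each library left out. Leaving out the 3 libraries of highest background, a background covariate, and the shares with their own alternatives were chosen after seeing the data. The members and gene lists were chosen with earlier results of these data known. Named by rule were members that passed, the 4 with the most RNA counts, the 4 with the most footprints and Lars2, and of the genes acting with them up to 4 per list that passed or the one of highest CPM where none did; other members were named after their values were seen. Coding lengths and protein sequences were not used here, so levels per length are not compared between genes, and sums and ranks of counts also reflect gene length. Some genes of these lists are not reported here.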

Additional observations from a re-analysis of the deposited data

How the results depend on the processing

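Of the 35 members without Lars2, 2 were called higher in RNA and 0 lower. Higher calls were 0 with DESeq2, RLE scaling, no filter or a threshold of 0.01, 1 with scaling without 4 genes, 12 with a mean of at least 50 counts, 18 among genes of at least 10 CPM, 6 without the 3 libraries of highest background and 8 with background as covariate. Lower calls were 3 with DESeq2, 1 with voom, RLE, scaling without 4 genes, no filter or the replicate block, 11 on library totals, 3 with a mean of at least 50 counts, 6 among genes of at least 10 CPM and 14 without the 3 libraries. With each library left out they ranged from 0 to 3 higher and 0 to 18 lower. For efficiency 1 member (Vars) was called higher on library totals and without the 3 libraries, and 0 to 1 with each library left out. Footprint calls were 0 under the alternatives run, a count that so few footprints leave uninformative. The main 19 calls among the 102 genes acting with the members became 11 with DESeq2, 8 with RLE, 46 on library totals, 12 with scaling without 4 genes, 9 with no filter, 59 with a mean of at least 50 counts, 73 among genes of at least 10 CPM, 7 at 0.01, 65 without the 3 libraries, 47 with the covariate and 5 to 60 with each library left out. The cause was not tested.

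Over all RNA genes, calls were 677 higher and 883 lower with TMM but 334 and 1364 with RLE, 1005 and 4215 on library totals, 363 and 2466 with DESeq2, and 1236 and 1168 with the replicate block. The median of all genes moved from 0.38 to 0.19 with RLE and 0.22 on library totals, and that of the 35 members from 0.02 to -0.19 and -0.15. Same-numbered RNA libraries correlated at -0.79, 0.64 and 0.73 in their deviations from the group means, and not every library correlated best with its own number. Deviations from the mean of so few libraries depend on each other, so they cannot tell if same-numbered libraries share an origin. Under the block Cars2 was called lower (-0.67).

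Small RNA changes turned negative, in the order DESeq2, RLE, library totals, scaling without 4 genes, no filter and without the 3 libraries. They were -0.32, -0.22, -0.18, -0.12, -0.15 and -0.14 for Aars, -0.27, -0.17, -0.13, -0.073, -0.10 and -0.12 for Gars, -0.22, -0.12, -0.083, -0.023, -0.051 and -0.036 for Secisbp2, and -0.25, -0.15, -0.11, -0.052, -0.080 and -0.096 for Eef1a1. Aars was also -0.018 with voom and -0.019 with the block, Nars and Sars were -0.036 with DESeq2, and Qrsl1 was 0.038 among genes of at least 10 CPM and 0.11 with the covariate. With each library left out the changes ranged from -0.31 to -0.014 (Aars), -0.27 to 0.048 (Gars), -0.039 to 0.28 (Nars), -0.054 to 0.28 (Sars), -0.20 to 0.073 (Secisbp2) and -0.24 to 0.069 (Eef1a1). Aars footprints were -0.13 with the higher filter and -0.38 to 0.38 with a library left out. Its efficiency was -0.028 with voom, -0.19 with the higher filter, -0.046 among genes of at least 10 CPM, -0.0075 with the block, -0.14 with the covariate and -0.46 to 0.44 with a library left out.

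The shares moved by less than 1 SD for all 35 members whichever RNA library was left out. This outcome was all but fixed beforehand, since leaving out 1 of 3 libraries cannot move a group mean by 1 pooled SD. Against all counts outside the 4 genes each log2 share change was higher by 0.13 to 0.14. With that, 16 members were above, 11 below and 8 overlapping, against 14, 17 and 4, and 32 moved by more than 1 SD, 2 reversed and 1 did not. Gars and Aars turned from -0.06 and -0.11 to 0.075 and 0.020. Depth limits the footprints, where 31 of 35 members did not pass edgeR's filter on low counts and DESeq2 tested 32.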
